A study of Mus musculus with 14 samples.

Results

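The 129 and CAST (castaneus) alleles of X-linked genes were compared in female Setdb1+/+ Xist∆A/+ 129/CAST embryonic stem (ES) cells at day 0, that is, in untransduced and undifferentiated cells in 2i+LIF medium before silencing of an X chromosome. This condition has 2 of the 14 RNA-seq libraries of the study, from 2 independent experiments with cells from E3.5 embryos of CAST sires and dams labelled 129/C57. The members are the 1411 of 2239 X-linked single nucleotide polymorphisms (SNPs) with at least 10 reads in both day 0 libraries, and the 319 of 355 genes that reach 10 reads in both libraries when the SNPs in their exons are summed. The comparison asks how unequal the alleles were before differentiation, since the study reads silencing of the CAST X chromosome from the same ratio of CAST to 129 reads at later times. For comparison, cells at day 3 of differentiation were read, with 2 libraries each of the non-silencing hairpin control (Nons) and of the hairpins shSetdb1.4 and shSetdb1.6. All are of the same genotype. The 129 allele is taken as the base of the mm10 reference at each SNP, and this base was not checked to be of 129 origin. The study's text describes the dams of these cells without the C57 part of the label.

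In XX ES cells both X chromosomes are transcribed, and 1 of them is silenced when the cells differentiate. Silencing needs the long non-coding RNA Xist, which coats the chromosome it is made from, and the Xist∆A allele lacks the repeat that silencing requires. In these cells the 129 X carries Xist∆A, so that the CAST X is the chromosome to be inactivated. The 129 X is always maternal and always carries Xist∆A, so strain, parent of origin and the Xist allele cannot be told apart. All libraries come from 1 F1 line, and the study's text also mentions XO cells in these cultures, whose share was not measured here.

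The day 0 libraries held 79819 and 82899 reads over SNPs, within the 32972 to 101511 reads of the 14 libraries. CAST reads made up 48.1% of the reads in replicate 1 and 49.3% in replicate 2. Both bases were seen at every SNP in the set, as 0 of the 1411 SNPs had one of the bases at 0 reads in both libraries. The cell type was checked only with X-linked markers. The ES cell genes Nr0b1 (588 and 1128 reads), Dusp9 (272 and 255) and Eras (24 and 78) were read in both libraries, and so were the endoderm and trophoblast markers Gpc3 (224 and 105), Esx1 (63 and 64) and Rhox6 (30 and 65). The markers checked for blood and mesenchyme had no SNP in the table.

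The chromosome as a whole was close to equal. The median log2 ratio of CAST to 129 reads over genes, with 1 added to each count, was -0.11 in replicate 1 and -0.050 in replicate 2, a mean of -0.079 ± 0.040 (SD, n = 2). Over SNPs the medians were -0.12 and -0.047, a mean of -0.085 ± 0.053 (SD, n = 2). Both libraries thus lay on the 129 side of 0, but 2 libraries cannot show this to be more than the spread between them, since the exact sign-flip permutation test (two-sided) gave p = 0.5, the smallest value it can give. In replicate 1, 186 genes had more 129 reads, 123 had more CAST reads and 10 were equal, against 165, 144 and 10 in replicate 2. Of the 319 genes, 136 had a fitted ratio within 0.25 of 0 on the log2 scale.

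Single genes departed from this equality in both directions. With edgeR's quasi-likelihood test and Benjamini-Hochberg adjustment over the 319 genes, 66 genes (20.7%) had an adjusted p under 0.05, of which 24 (7.52%) were higher from the CAST allele and 42 (13.2%) from the 129 allele. This split depends on where the centre is put. When every library was centred at its own median ratio, a shift of 0.079 on the log2 scale, the counts were 37 and 36, and with TMM factors, a shift of 0.12, they were 44 and 31. Of the 66 calls, 60 were also made after centring and 55 with TMM factors. DESeq2 made 41 calls, all among the 66. The edgeR fit holds a replicate block, an allele effect of the replicate number, and without it 51 calls were made, all among the 66. Without day 0 replicate 1 there were 41 calls, 36 of them among the 66, and without replicate 2 there were 35, with 33 among the 66. Fits without 1 day 0 library, here and below, keep the replicate block as estimated from the other conditions. Their log2 ratios can thus differ from the lone library's own ratio. All 66 genes lay on the same side of equality in both libraries, against 61.8% of all 319 genes. This is a description, since the calls were made from these libraries. The ratio was at least 2-fold in 32 of the 66 genes (12 CAST, 20 129) and at least 4-fold in 6 of them. The median size of the difference was 0.91 on the log2 scale for the 66 genes. Across the 319 genes, the log2 ratios of the libraries had a Pearson correlation of 0.620 and a Spearman correlation of 0.507, a description over genes of 1 line, which are not independent replicates.

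**Figure D1:**
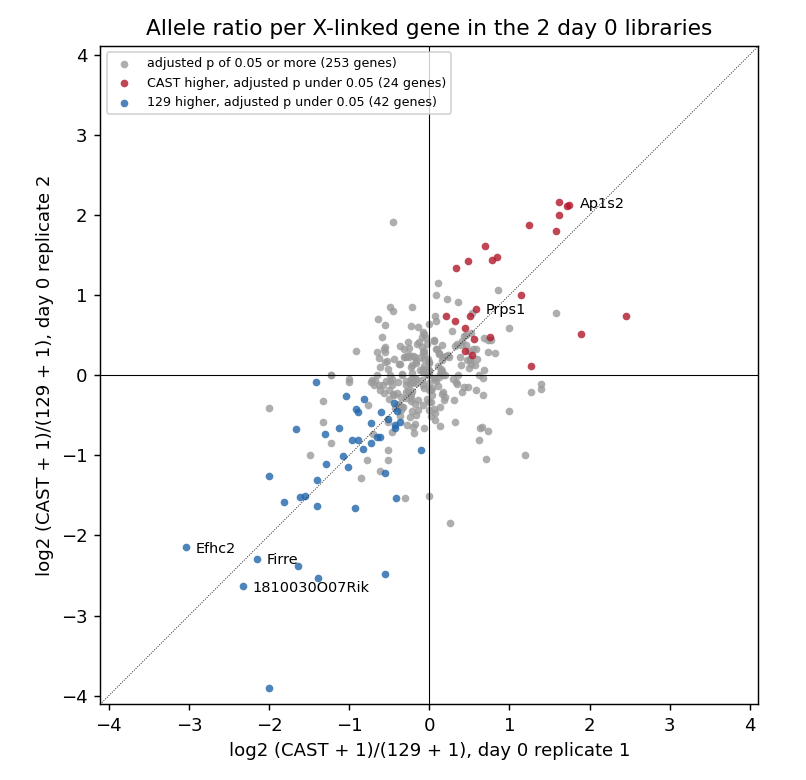
Log2 (CAST + 1)/(129 + 1) of each of the 319 genes in day 0 replicate 1 (x axis) and replicate 2 (y axis). Red points are the 24 genes higher from CAST and blue points the 42 genes higher from 129 (edgeR, adjusted p under 0.05), and all 66 lie in the lower left or the upper right part.

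Among genes higher from the CAST allele, Ap1s2 had the smallest adjusted p. Ap1s2 (ENSMUSG00000031367.15, mm10 chrX:163909017-163933666, plus strand) encodes a small subunit of the AP-1 clathrin adaptor, which sorts cargo at the trans-Golgi network. It had 472 CAST and 140 129 reads in replicate 1 and 562 and 128 in replicate 2, a CAST share of 79.3% ± 3.06 (SD, n = 2). The CAST allele was thus 3.85-fold higher (log2 ratio 1.94 ± 0.15 SE, edgeR adjusted p = 4.39e-34). The excess was present along the whole stretch that could be read. All 12 SNPs with at least 10 reads, spread over 1180 bases of the 3′ UTR, passed the test on their own, with CAST shares of 69.4% to 90.2% (replicate 1) and 74.4% to 90.5% (replicate 2). The sequences around the SNPs with the smallest adjusted p are given as 21-base windows of the GENCODE transcript on the plus strand, at chrX:163928461-163928481 and chrX:163928637-163928657, with the SNP in capitals at position 11 counted from the 5′ end (T11G and T11C).
Ap1s2 first SNP, 129: tagtttgatcTtccactgttg
Ap1s2 first SNP, CAST: tagtttgatcGtccactgttg
Ap1s2 second SNP, 129: agaaattttgTattgccaata
Ap1s2 second SNP, CAST: agaaattttgCattgccaata
At the first of these SNPs 61 CAST and 10 129 reads were counted in replicate 1 and 70 and 18 in replicate 2. At the second the counts were 46 and 5, then 41 and 7.

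Prps1, Dkc1 and Pls3 had a CAST excess at every SNP and were less unequal than Ap1s2. Prps1, a phosphoribosyl pyrophosphate synthetase that feeds nucleotide synthesis, had 1124 CAST and 748 129 reads in replicate 1 and 1439 and 809 in replicate 2 (log2 0.71 ± 0.12 SE, 1.63-fold, adjusted p = 3.41e-08). Its 6 SNPs, all in the 3′ UTR, had CAST shares of 52.5% to 65.7% and of 60.1% to 68.0%, and 5 of them passed the test. Dkc1, the pseudouridine synthase of H/ACA ribonucleoproteins and of telomerase, had 1149 against 806 and 980 against 585 reads (log2 0.62 ± 0.12 SE, 1.54-fold, adjusted p = 2.13e-06), and its 4 SNPs all passed, but the gene did not pass without replicate 2 (log2 0.42, adjusted p = 0.0970). In Pls3, an actin-bundling plastin, 105 CAST reads stood against 47 in replicate 1 and 115 against 57 in replicate 2 (2.12-fold, adjusted p = 3.07e-05), and its 3 SNPs, spread over 15108 bases, all passed. The CAST excess of Dkc1 and Pls3 was thus seen in coding and 3′ UTR positions, and that of Prps1 in 760 bases of the 3′ UTR.

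Some CAST-higher genes rested on few reads or few positions. 1700080O16Rik had 55 CAST and 16 129 reads in replicate 1 and 68 and 15 in replicate 2 (3.94-fold, adjusted p = 7.68e-08). Rhox6, a homeobox gene of the Rhox cluster, had 23 and 7, then 51 and 14 (3.37-fold, adjusted p = 0.000149, and 0.0530 without replicate 2). In Gpr143, a receptor of pigment cells, 149 and 48 reads in replicate 1 were followed by only 19 and 4 in replicate 2 (4.03-fold, adjusted p = 8.79e-07), and it did not pass without replicate 1 (adjusted p = 0.227). Pcsk1n, an inhibitor of the prohormone convertase PCSK1, had 62 and 16, then 19 and 13 reads (2.72-fold, adjusted p = 0.000359), and without replicate 1 its log2 ratio fell from 1.45 to 0.38 (adjusted p = 0.817), against 2.11 without replicate 2. AU015836 had 70 and 29, then 32 and 8 reads (2.86-fold, adjusted p = 4.02e-05). Without its SNP with most reads Rhox6 had a log2 ratio of 1.36 and did not pass (edgeR adjusted p = 0.0632).

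The gene with the second smallest adjusted p on the CAST side, Pgk1, showed a different pattern. Pgk1 (ENSMUSG00000062070.12, chrX:106187100-106203699, plus strand) is the glycolytic enzyme phosphoglycerate kinase 1. It had 122 CAST and 39 129 reads in replicate 1 and 102 and 22 in replicate 2 (3.79-fold, log2 1.92 ± 0.25 SE, adjusted p = 6.95e-13). Nearly all of these reads come from a single coding SNP, with 115 against 32 and 97 against 15 reads. The only other SNP, in the 5′ UTR, had 7 reads of each allele in replicate 1 and 5 CAST against 7 129 reads in replicate 2, and without the coding SNP the log2 ratio of the gene was -0.22 (adjusted p = 0.907). The 95% Wilson intervals of the CAST share at the coding SNP were 70.9% to 84.1% and 79.1% to 91.7%, those at the 5′ UTR SNP 26.8% to 73.2% and 19.3% to 68.0%, so that the intervals of the SNPs did not overlap in replicate 2. Pgk1 and Prps1 have near-identical copies elsewhere in the genome, and how reads of such copies were assigned was not tested. The windows, at chrX:106194370-106194390 for the coding SNP (C11T) and chrX:106187144-106187164 for the 5′ UTR SNP (G11C), read as follows.
Pgk1 coding SNP, 129: ttccaagcatCaaattctgct
Pgk1 coding SNP, CAST: ttccaagcatTaaattctgct
Pgk1 5′ UTR SNP, 129: aaggtcctccGgaggcccggc
Pgk1 5′ UTR SNP, CAST: aaggtcctccCgaggcccggc

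Among genes higher from the 129 allele, the long non-coding RNA Firre had the smallest adjusted p. Firre (ENSMUSG00000085396.7, chrX:50555744-50635321, minus strand) is transcribed from a locus with many copies of a local repeat and stays nuclear. It had 159 CAST and 708 129 reads in replicate 1 and 70 and 347 in replicate 2, a CAST share of 17.6% ± 1.10 (SD, n = 2). The 129 allele was 4.63-fold higher (log2 -2.21 ± 0.16 SE, edgeR adjusted p = 4.60e-41). All 22 SNPs with at least 10 reads were on the 129 side in both libraries and 16 of them passed the test, over 68065 bases of the gene. Reads of Firre fell from 867 to 417 between the libraries, while its CAST share was 18.3% and 16.8%. With only SNPs that have no other SNP within 100 bases the log2 ratio was smaller, at -1.76, and passed (edgeR adjusted p = 7.71e-09).

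Efhc2, an EF-hand protein of cilia, was the most unequal of the 20 leading genes. It had 15 CAST and 130 129 reads in replicate 1 and 20 and 92 in replicate 2 (6.23-fold, log2 -2.64 ± 0.28 SE, adjusted p = 4.68e-19). Its 4 coding SNPs, over 82283 bases, all passed the test, with CAST shares from 3.03% to 12.5% and from 16.2% to 20%. The protein-coding gene 1810030O07Rik had 15 and 79, then 13 and 86 reads (5.84-fold, adjusted p = 2.43e-14), and each of its 5 SNPs passed. The membrane protein gene Tmem47 had 47 and 126, then 32 and 101 reads (2.86-fold, adjusted p = 2.32e-10), with its 7 SNPs on the 129 side. Gk, glycerol kinase, had 81 and 215, then 77 and 193 reads (2.57-fold, adjusted p = 4.76e-10), and 10 of its 12 SNPs were on the 129 side in both libraries. Phka2, the liver regulatory subunit of phosphorylase kinase, had 44 and 117, then 13 and 80 reads (3.50-fold, log2 -1.81, adjusted p = 5.76e-10), and the log2 ratio was -2.95 without replicate 1 and -1.07 without replicate 2. With only SNPs that have no other SNP within 100 bases Phka2 was at -0.71 and did not pass (adjusted p = 0.300). Bclaf3 had 53 and 102, then 38 and 122 reads (2.46-fold, adjusted p = 8.43e-07), and without replicate 2 its log2 ratio was -0.70 (adjusted p = 0.200), against -1.93 without replicate 1. Of the 5 SNPs of Bclaf3 only 2, which lie 3 bases apart, passed, and with SNPs that have no neighbour the gene was at -0.46 (adjusted p = 0.184). Magea4, of the melanoma antigen family, whose similar copies leave the origin of reads uncertain (also for Magea8), had the lowest ratio of all, but on 2 and 11, then 0 and 14 reads (log2 -3.61, adjusted p = 0.000219), and the adjusted p was 0.0513 without replicate 1 and 0.102 without replicate 2.

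Pgrmc1, a haem-binding membrane protein, was measured at 1 SNP only. It had 39 CAST and 121 129 reads in replicate 1 and 43 and 125 in replicate 2, shares of 24.4% and 25.6% (2.99-fold, log2 -1.58 ± 0.23 SE, adjusted p = 4.72e-10). The SNP lies in the 3′ UTR, and its window at chrX:36605759-36605779 (plus strand, C11A) is shown because the call of the gene rests on it.
Pgrmc1 SNP, 129: tttgaaaggaCaatacattca
Pgrmc1 SNP, CAST: tttgaaaggaAaatacattca

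**Figure D2:**
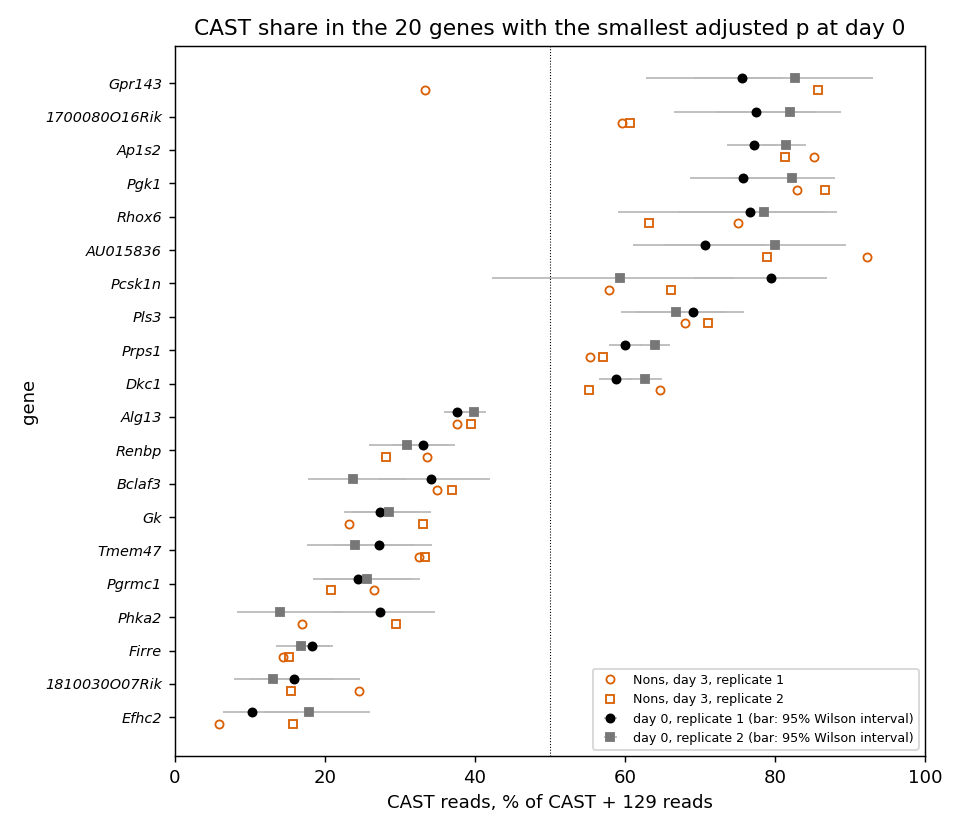
CAST reads as a percentage of CAST and 129 reads (x axis) in the 10 CAST-higher and 10 129-higher genes with the smallest adjusted p at day 0 (y axis). Filled points are the day 0 libraries with 95% Wilson intervals, open points the Nons libraries at day 3, and the dotted line marks 50%. The intervals are for counting error only, and too narrow for it where a read is counted at several SNPs of a gene. In Gpr143 the Nons libraries hold 3 and 7 reads.

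Within several 129-higher genes the CAST share varied between positions, a difference that was not tested. Idh3g, a subunit of the mitochondrial isocitrate dehydrogenase, had 320 CAST and 489 129 reads in replicate 1 and 323 and 554 in replicate 2 (log2 -0.70 ± 0.14 SE, adjusted p = 4.84e-06, but 0.0562 without replicate 2). Of its 3 SNPs, the most 5′ had 56 against 214 and 62 against 234 reads, CAST shares of 20.7% and 20.9%. The middle SNP had 151 against 165 and 126 against 171 reads, and the 3′ UTR SNP 113 against 110 and 135 against 149, shares of 50.7% and 47.5%. The intervals of the first SNP did not overlap those of the others in either library, and only the first SNP passed the test.

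Alg13, a subunit of the transferase that adds the second sugar in N-glycosylation, gave the most reads of all the genes that passed the test. It had 1103 CAST and 1833 129 reads in replicate 1 and 1282 and 1938 in replicate 2 (log2 -0.66 ± 0.11 SE, 1.59-fold, adjusted p = 4.92e-08). Its 21 SNPs, all in positions annotated as 3′ UTR of at least 1 transcript, differed widely. A total of 10 passed the test, all on the 129 side, while the highest SNP had a log2 ratio of 0.81 and did not pass. The lowest SNP had 41 CAST and 148 129 reads in replicate 1 and 38 and 167 in replicate 2, and the SNP before the last at the 3′ end had 164 and 161, then 203 and 173. In Renbp, the renin-binding protein, 2 SNPs 12 bases apart had CAST shares of 19.8% to 20.4% in replicate 1 and 20% to 23.0% in replicate 2, whereas the third, more than 100 bases away, had 48.6% and 40.7%. The gene as a whole had a log2 ratio of -1.07 ± 0.18 SE (adjusted p = 1.37e-07), and with only SNPs that have no other SNP within 100 bases the ratio was -0.26 (adjusted p = 0.367). The lowest SNPs of Idh3g (minus strand, chrX:73781159-73781179, T11C) and Alg13 (plus strand, chrX:144355609-144355629, A11G) are shown on the strand of the transcript. Neither has another SNP of the table within 100 bases.
Idh3g SNP, 129: cccacaaatcTcgaaacaaca
Idh3g SNP, CAST: cccacaaatcCcgaaacaaca
Alg13 SNP, 129: ctgtgcctcaAgacacagtta
Alg13 SNP, CAST: ctgtgcctcaGgacacagtta

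Hprt, the purine salvage enzyme hypoxanthine phosphoribosyltransferase, had a ratio that differed from 5′ to 3′ end. It had 394 CAST and 510 129 reads in replicate 1 and 339 and 510 in replicate 2 (log2 -0.48 ± 0.13 SE, 1.39-fold, adjusted p = 0.00249). In order from the 5′ end the CAST shares of its 4 SNPs were 31.3%, 38.2%, 44.7% and 50.9% in replicate 1 and 18.3%, 28.6%, 43.0% and 52.1% in replicate 2. Only the first 2 SNPs, 68 bases apart at the 5′ end, passed the test. Without replicate 2 the log2 ratio of the gene was -0.25 (adjusted p = 0.490), and without SNPs that have a neighbour within 100 bases it was -0.21 (adjusted p = 0.267).

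**Figure D3:**
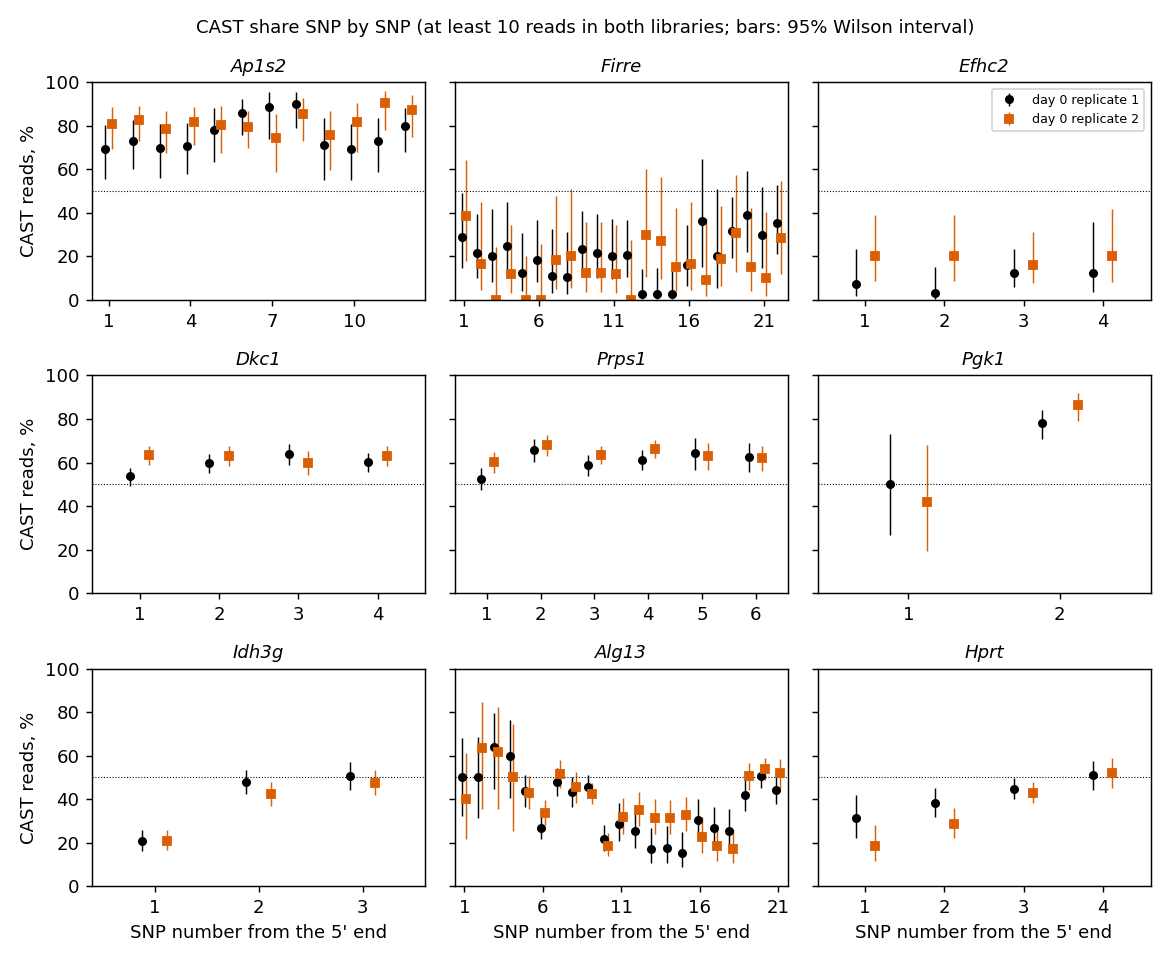
CAST reads as a percentage of CAST and 129 reads (y axis) at each SNP with at least 10 reads in both day 0 libraries, numbered from the 5′ end (x axis), with 95% Wilson intervals for counting error. In Ap1s2, Firre, Efhc2, Dkc1 and Prps1 all SNPs lie on 1 side of the dotted 50% line, and in Pgk1, Idh3g, Alg13 and Hprt some SNPs lie near it and others far from it.

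Over all genes, agreement of SNPs was measured with positions that a single read cannot span. In replicate 1, 67.6% of 1227 SNPs lay on the same side of equality as the sum of the other SNPs of their gene at least 100 bases away, and in replicate 2 62.8% of 1201. Of the 66 genes that passed the test, 48 had at least 2 SNPs with 10 reads. In 24 of these every SNP was on the gene's side in both libraries, and in 6 (Alg13, Gpkow, Hprt, Acsl4, Rpgr and Zfp185) at least 1 SNP was on the other side in both. None of the opposite SNPs in these genes passed the test. Among genes that did not pass, Uba1, Xlr3a and Siah1b each had at least 1 SNP past the threshold in the direction opposite to the gene. Xlr3a belongs to a family of near-identical copies, for which the origin of reads is uncertain.

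At the level of single SNPs, 169 of 1411 (12%) passed the edgeR test, 48 (3.4%) higher from CAST and 121 (8.58%) from 129. Of these, 165 lay in exons of 1 gene, in 68 genes, 43 of which also passed as genes. The count rests on the spread shared with the other libraries, as the day 0 libraries alone gave 0 calls (264 at an unadjusted p under 0.05), and leaving out replicate 1 or 2 gave 66 or 58, which also limits the statements on single SNPs above. By part of the transcript, in the 3′ UTR 33 SNPs were higher from CAST and 33 from 129, of 675, with 12 of the former in Ap1s2 and 10 of the latter in Alg13. In the 5′ UTR the counts were 2 and 7, of 54. In coding sequence they were 13 and 61, of 611, and the median log2 ratios of coding SNPs were -0.19 and -0.10 in the libraries, against 0 and 0 in the 3′ UTR. SNPs of 1 gene are not independent, and the difference between the parts was not tested. All 16 SNPs that passed in non-coding transcripts were in Firre.

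The number of neighbouring SNPs moved with the ratio. SNPs with no other SNP of the table within 100 bases, the read length, had median log2 ratios of -0.070 and 0 and 9.05% of 796 passed. For SNPs with 3 or more neighbours the medians were -0.35 and -0.46 and 30.1% of 113 passed, 6 higher from CAST and 28 from 129. Without Firre the medians of that class were -0.28 and -0.42 and 25 of 103 SNPs passed, 6 of them higher from CAST. A CAST read over such a stretch differs from mm10 at several bases, and the part this has in the 129-higher genes was not tested. When only SNPs without a neighbour were summed, 56 of 295 genes passed. Of the 66 genes, 61 could be tested in this way, 42 passed again and 2 (Rpgr and Amer1) changed direction without passing. Transitions and transversions had similar medians, of -0.12 and -0.056 and of -0.12 and -0.031.

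By function, unequal genes were most frequent, of the 11 gene lists used, in that of metabolism and mitochondria. Of 28 such genes tested, 13 passed (46.4%, against 20.7% of all genes), 4 higher from CAST and 9 from 129, and no test was made of this share. The CAST-higher members were Pgk1, Prps1, Prps2 and Acsl4. Prps2, the paralogue of Prps1, had 464 CAST and 340 129 reads in replicate 1 and 444 and 294 in replicate 2 (log2 0.52, adjusted p = 0.000936, and 0.109 without replicate 1), and with SNPs that have no neighbour it was at 0.23 (adjusted p = 0.327). Acsl4, which activates long-chain polyunsaturated fatty acids, had 251 and 171, then 308 and 226 (log2 0.50, adjusted p = 0.00780, and 0.271 or 0.0631 without replicate 1 or 2). The 129-higher members were Phka2, Gk, Idh3g, Hprt, Pdha1, Slc6a8, Hsd17b10, Acot9 and Sat1. Pdha1, the E1 alpha subunit of pyruvate dehydrogenase, had 381 and 511, then 343 and 527 reads (log2 -0.52, adjusted p = 0.000665, and 0.235 without replicate 2). The creatine transporter Slc6a8 had 134 and 249, then 173 and 305 (log2 -0.86, adjusted p = 3.17e-06). The mitochondrial dehydrogenase Hsd17b10 had 105 and 187, then 83 and 158 (log2 -0.87, adjusted p = 5.43e-05, and 0.0868 without replicate 2), and with SNPs that have no neighbour it was at -0.28 (adjusted p = 0.391). The acyl-CoA thioesterase Acot9 had 42 and 93, then 72 and 114 (log2 -0.89, adjusted p = 0.000777, and 0.0839 without replicate 1). Sat1, of polyamine breakdown, had 16 and 41, then 8 and 14 (log2 -1.14, adjusted p = 0.0339), and did not pass when either replicate was left out (adjusted p = 0.582 and 0.0896). The median log2 ratio of the 28 genes was -0.065, near the -0.061 of all genes, as the group holds genes of both directions. The list was drawn up by hand with earlier results of these data known, so its share is no result about this function. The count rests in part on the single positions of Pgk1 and Idh3g described above.

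Other groups held no gene that passed, where 20.7% of all genes did, and for lists this short the counts are no result about the lists. Of 6 genes known to escape X inactivation, 0 passed in the edgeR test, and their log2 ratios lay between -0.27 and 0.096. Kdm5c, an H3K4 demethylase, had 384 CAST and 363 129 reads in replicate 1 and 455 and 481 in replicate 2 (log2 -0.0032 ± 0.13 SE). Ddx3x, an RNA helicase, had 266 and 240, then 388 and 374 (log2 0.096 ± 0.14 SE), the H3K27 demethylase gene Kdm6a 55 and 59, then 81 and 69 (log2 0.073 ± 0.23 SE), and the translation factor gene Eif2s3x 121 and 170, then 198 and 209 (log2 -0.27 ± 0.17 SE). None of 19 chromatin genes and none of 13 RNA processing genes passed, with log2 ratios from -0.27 to 0.41 and from -0.50 to 0.12. In the X inactivation centre and its surroundings Rlim and Chic1 were tested. Rlim, a ubiquitin ligase that activates Xist, had 844 and 802, then 494 and 509 reads (log2 0.023 ± 0.12 SE). Uba1, the ubiquitin-activating enzyme, had 1189 and 1259, then 1394 and 1515 (log2 -0.10 ± 0.11 SE, adjusted p = 0.567). Usp9x, a deubiquitinase, had 573 and 673, then 864 and 1083, and did not pass (log2 -0.28 ± 0.12 SE, adjusted p = 0.0698), although it passed with SNPs at least 100 bases apart (adjusted p = 0.0456) or without neighbours (adjusted p = 0.0414).

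Among 13 regulators of ES cells and genes that act by their double dose, 1 passed in each direction (15.4%, against 20.7% of all genes). Eras, which encodes a Ras-like protein of ES cells, had 21 CAST and 3 129 reads in replicate 1 and 49 and 29 in replicate 2 (log2 1.15, adjusted p = 0.00869), and without replicate 1 its log2 ratio was 0.58 (adjusted p = 0.474), against 2.93 without replicate 2. Klhl13, a substrate adaptor of a ubiquitin ligase, had 193 and 256, then 137 and 187 (log2 -0.42, adjusted p = 0.0361), and the adjusted p was 0.0807 without replicate 1 and 0.511 without replicate 2. Klhl13 also did not pass with DESeq2 (adjusted p = 0.128), or in edgeR with TMM factors (0.0543) or without the replicate block (0.0825). Neither Eras nor Klhl13 passed without its SNP with most reads. Nr0b1, the orphan receptor DAX1, was almost exactly equal, with 293 and 295 reads, then 565 and 563 (log2 -0.0098 ± 0.14 SE). Among 9 translation and ribosome genes, Dkc1 and Gnl3l were higher from CAST and Eif1ax from 129, and without its SNP with most reads Eif1ax had a log2 ratio of 0.079. Of 12 genes of the Tceal, Bex, Armcx and Mage families, Bex1 was higher from CAST and Maged2 and Armcx2 from 129. Of 11 germline and testis genes Rhox6 and Magea8 passed, in opposite directions, and of 8 genes of the ubiquitin system Rnf128, from CAST. Among 15 genes of the cytoskeleton, membranes and trafficking, Ap1s2, Pls3 and Sh3bgrl were higher from CAST and Flna from 129. The share that passed in these last 5 lists was between 12.5% and 33.3%, not tested against the 20.7% of all genes. Among the genes named only by direction here, Gnl3l did not pass without replicate 1, Rnf128 and Magea8 without replicate 2, and Eif1ax, Bex1, Maged2, Armcx2 and Sh3bgrl when either was left out (adjusted p from 0.0905 to 0.528 over these fits). Of these genes all but Magea8 also did not pass with DESeq2, and Magea8 did not pass without its SNP with most reads. Flna, filamin A, had 353 and 537, then 586 and 808 reads (log2 -0.54, adjusted p = 5.43e-05).

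Genes that passed lay in all 10 Mb stretches of the chromosome but 60 to 70 Mb, with 7 genes tested, and 120 to 130 Mb, with 1 gene. The counts are given beside the 20.7% of all genes and were not tested by position. In the first 10 Mb, 30 genes were tested and 5 passed, all higher from CAST, with library medians of 0.17 and 0.30. From 90 to 100 Mb, 3 of 19 passed, all from CAST. From 10 to 20 Mb, 3 of 13 passed, all from 129. From 70 to 80 Mb, which held 48 genes, 2 were higher from CAST and 8 from 129, and from 150 to 160 Mb, with 34 genes, 2 and 7.

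Depth set how small a difference could pass. Among 77 genes with a mean of 10 to 50 reads over the libraries 9 passed, the smallest at a log2 ratio of 1.14, and among 38 genes with a mean of at least 500 reads 13 passed, the smallest at 0.37. The median SD of the CAST share between the libraries was 7.98 percentage points in the first class and 2.03 in the last. A further 5 genes differed at least 2-fold without passing (Pramel3, Trmt2b, Taf7l, Cited1 and Cd99l2), each with at most 40 reads in a library. For these, inequality could not be told from equality at this depth.

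**Figure D4:**
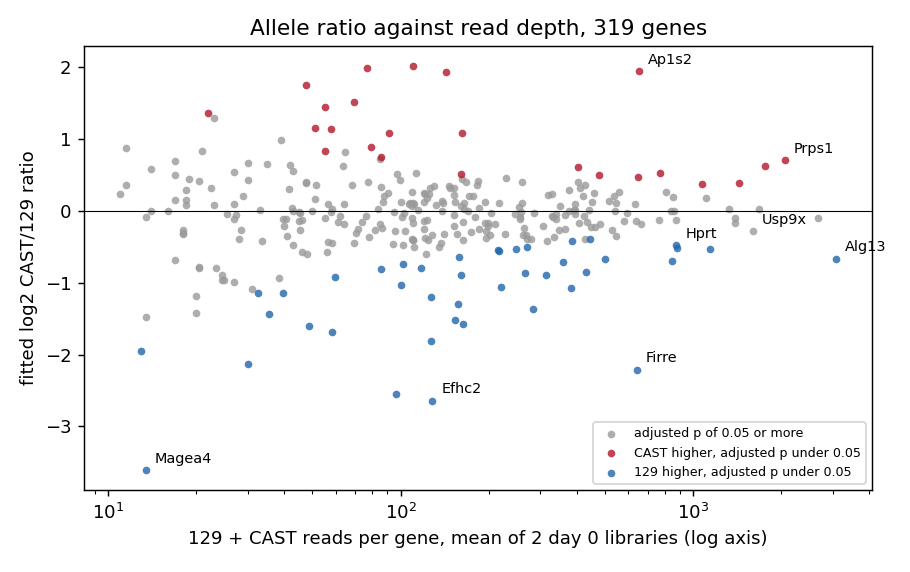
Fitted log2 CAST/129 ratio (y axis) against the mean number of CAST and 129 reads per gene in the day 0 libraries (x axis, log scale) for the 319 genes, coloured by the edgeR call. Called genes reach smaller ratios as depth rises, from 1.14 below a mean of 50 reads to 0.37 at 500 reads or more.

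The same genes were then read in the Nons libraries at day 3. These libraries are not independent of the 66 calls, since all 14 libraries shared the estimates of spread and of the replicate block (the day 0 libraries alone gave 56 calls, 55 of them among the 66). In the same edgeR model 58 of the 319 genes (18.2%) passed at day 3, 25 (7.84%) higher from CAST and 33 (10.3%) from 129. Of the 66 genes unequal at day 0, 63 kept their direction at day 3 (95.5%), compared with 177 of the other 253 (70.0%). Of these 66 genes 41 also passed at day 3 in the same direction (62.1% of the day 0 calls and 70.7% of the day 3 calls) and 0 passed in the opposite direction. The exceptions to the shared direction were Rpgr, Klhl13 and Wdr45. Rpgr went from a log2 ratio of -0.65 to 0.28, Klhl13 from -0.42 to 0.11 and Wdr45 from 1.35, on 8 CAST and 4 129 reads and then 24 and 8, to -0.085. At day 0 none of these 3 passed when either replicate was left out (adjusted p from 0.0519 to 0.567). In 50 of the 66 genes (75.8%) all 6 libraries at day 3, those with Setdb1 hairpins included, lay on the side of day 0, compared with 48 of 253 (19.0%).

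At day 3 Ap1s2 had 575 CAST and 100 129 reads and then 567 and 130 (log2 2.32), Pgk1 121 and 25 and then 97 and 15 (log2 2.49), Firre 31 and 183 and then 22 and 122 (log2 -2.51) and Efhc2 5 and 79 and then 20 and 107 (log2 -2.98). 1700080O16Rik had a smaller CAST excess at day 3, with 34 and 23 and then 37 and 24 reads (log2 0.59), and its difference between the days did not pass. The difference between the days was tested for every gene, and 0 of 319 passed by edgeR (17 had an unadjusted p under 0.05) or by DESeq2 (6 under 0.05). The smallest adjusted p was that of Nr0b1, which was equal at day 0 and had 368 CAST and 237 129 reads, then 806 and 482, at day 3 (log2 0.68, difference 0.69, adjusted p = 0.120). With centring at the median ratio per library, 2 genes passed, Nr0b1 (difference 0.64, adjusted p = 0.0141) and Prps1 (difference -0.41, adjusted p = 0.0229). These genes were named after their values were seen.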

How the data were processed

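Single-end reads of 100 bp were aligned by the authors (Subread, mm10), who took allele counts at X-linked SNPs of the Mouse Genomes Project from a samtools pileup. The deposited values are these raw counts per base. The submitters' processing notes also name CASAVA 1.8.2. Of 2239 SNPs, 2173 lay in exons of 1 gene of GENCODE M21 (355 genes) and were summed per gene. The share of SNPs within a read length of another was 44.0%, and the counts of such neighbours can hold the same reads. Counting is not stated to use strand, so overlapping genes can share reads. The table holds 4 per-sample columns of no listed sample, which were not used.

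The 28 allele columns of 14 libraries went into 1 quasi-likelihood fit in edgeR 4.0.16 (R 4.3.3). The model held library terms, allele effects per condition and an allele by replicate number block. Both alleles shared 1 library size. p-values were adjusted by Benjamini-Hochberg over all 319 genes or 1411 SNPs, and an adjusted p under 0.05 is called passing. p-values measure the spread left over the 14 libraries of 1 line after the terms of this model. A difference between the 2 experiments that is the same in all conditions is taken up by the block and not part of it. Ratios per library are log2 of (CAST + 1)/(129 + 1). Wilson intervals (95%) cover counting error only, since without molecular identifiers several reads can stem from 1 molecule. Those of genes are also too narrow where a read is counted at several SNPs. In simulated data with 50 of the 319 genes changed, 86% were recovered at a log2 ratio of 1 (2 false calls) and 18% at 0.5 (0 false calls). With none changed 0 calls were made.

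The members, gene lists and tests were chosen with earlier results of these data known. Named genes are the 10 with the smallest adjusted p in each direction, up to 4 members of each list with most reads, escape genes and genes named by the study. The others were named after their values were seen. Sequences are from the GENCODE M21 transcripts. Autosomal genes and Xist were not analysed here. Some marker genes are not reported here. Alternatives changed the read minimum, SNPs, scaling, test, block and libraries, and those on neighbouring SNPs and on each gene's SNP with most reads were added after seeing the data. DESeq2 1.42.0 was the alternative test.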

Additional observations from a re-analysis of the deposited data

How the results depend on the processing

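Of the 66 gene calls, 41 were made by DESeq2 (15 higher from CAST and 26 from 129), all shared. Of 43 called genes given above with their direction, it did not call 11 (Klhl13, Wdr45, Rpgr, Gnl3l, Eif1ax, Rnf128, Bex1, Maged2, Armcx2, Sh3bgrl and Sat1). With TMM factors 44 genes were higher from CAST, and with centred ratios 37. Leaving out 1 day 0 library gave 35 to 41 calls (33 and 36 of them among the 66), with 11 to 14 higher from CAST and 21 to 30 from 129, where the lone library is assumed to vary like the other groups. These values hold the replicate block estimated from the other conditions, so they can differ from the lone library's own ratio. Of the same 43 genes, 26 passed without replicate 1 and 23 without replicate 2. Without each gene's SNP with most reads, 257 genes and 59 of the 66 could be tested. In this fit 45 genes passed (42 shared) and 27 were higher from 129. Pgk1 had a log2 ratio of -0.22 and Eif1ax one of 0.079. Of the 43 genes 38 could be tested, and 9 did not pass (Pgk1, Rhox6, Klhl13, Eras, Magea8, Eif1ax, Maged2, Armcx2 and Sh3bgrl). With only SNPs that have no neighbour, Rpgr was at 0.28.

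For SNPs, a minimum of 20 reads gave 74 higher from 129 of 846 tested. Day 0 libraries alone gave 0 calls in all and in each direction (264 at an unadjusted p under 0.05). Leaving out 1 library gave 58 to 66, 15 to 23 from CAST and 43 from 129. At day 3, leaving out 1 Nons library gave 28 to 35 calls, 10 to 14 from CAST and 14 to 25 from 129. Centred ratios gave 2 genes that differed between the days.

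Genes near equality changed sign without passing. With TMM factors Kdm5c was at 0.11, Nr0b1 at 0.10 and Uba1 at 0.016, and with centred ratios Kdm5c was at 0.075 and Nr0b1 at 0.063. With SNPs at least 100 bases apart Kdm5c was at 0.014, Nr0b1 at 0.033 and Rlim at -0.0045, and with SNPs without a neighbour Kdm5c was at 0.00094 and Nr0b1 at 0.059. Leaving out replicate 2 gave 0.14 for Kdm5c, -0.049 for Kdm6a and 0.11 for Nr0b1, and leaving out replicate 1 gave -0.15 for Rlim. The causes were not tested.

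Over 247 genes, the deviations of samples with the same replicate number were weakly correlated (mean 0.051, from -0.14 to 0.27). This correlation leaves out a shift common to all genes, so it cannot decide whether the numbers pair the samples. The common dispersion was 0.0107 without the replicate block and 0.0074 with it. Without the replicate block 51 genes passed, all among the 66, and 158 SNPs. Of the 43 called genes given above, Klhl13, Rpgr, Gnl3l, Bex1, Armcx2 and Sh3bgrl then did not pass. Depth limits genes with a mean under 50 reads, where no ratio below 1.14 passed.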
